A study of Mus musculus with 12 samples.

Results

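This account follows 41 genes of protein folding, chosen from a list of molecular chaperones and their helpers, in mouse splenic B cells before and after IgM. Of the 41 genes, 37 were measured among the 9293 genes tested. RNA was read on 12 one-colour Affymetrix arrays, with 3 arrays in each of 4 groups, from B cells sorted on B220, a surface protein of most B cells. The control groups were labelled Foxp1wt/flox and the other groups Foxp1flox/del. A flox allele can be removed by Cre recombinase and a del allele already lacks the flanked piece, so every group carried 1 flox allele. All mice had a mixed 129/Sv-C57BL/6 background. Cells of each genotype were compared unstimulated and after 4 h with an agent named only IgM. Neither the Cre used, if any, nor recombination of the flox allele, the age of the mice or the origin of the replicates (separate animals, separate cultures or neither) is given, so the p-values here reflect no more than the spread among these arrays, which may be technical. Foxp1flox/del is called deleted here, and Foxp1wt/flox control.

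Chaperones bind unfolded or partly folded proteins and release them in cycles driven by ATP, so that the chain can reach its native fold instead of aggregating. The cytosol uses the ring-shaped chaperonin TRiC and the Hsp70 and Hsp90 systems with their J proteins and co-chaperones, mitochondria have their own Hsp60, Hsp70 and Hsp90, and the endoplasmic reticulum (ER) folds secreted and surface proteins with BiP, Grp94, the lectins calnexin and calreticulin, and disulfide isomerases. Cross-linking of the B cell receptor starts cell growth and protein synthesis, and B cells that go on to secrete antibody enlarge the ER folding machinery under the transcription factor Xbp1.

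Of the 41 genes, 8 encode TRiC subunits, 16 cytosolic chaperones and co-chaperones, 6 mitochondrial and 9 ER proteins, and 2 the regulators Xbp1 and Hsf1. The platform annotation gave no probe set that names Hsp90ab1, the constitutive cytosolic Hsp90, or Hsf1, the heat shock transcription factor, alone, and Ppid, cyclophilin 40, shared its probe set with another gene, so these 3 have no value here. Bag3, an Hsp70 nucleotide exchange factor, had a single probe set with log2 values of 3.0 to 3.49 over the 12 arrays, below the filter that asked for a log2 value above 4 on at least 3 arrays, and it was not tested. The 37 measured members had mean log2 values from 8.51 to 14.02 over the 12 arrays, with a median of 12.25 against 8.52 for all tested genes. These are probe set intensities, so levels of different genes are not compared with each other.

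The regulatory sequence next to the transcription start is shown for 4 members, 1 carrying heat shock elements and 3 carrying ER stress elements, because these elements are the textbook control points of the heat shock response and of the unfolded protein response. The sequences are the 250 bases before a RefSeq start site in GRCm38.p6, 5′ to 3′ on the gene's strand, with matches in capitals. Hspd1 and Hspe1 are neighbours that start toward opposite sides, and their windows hold the same elements. In the Hspd1 window, chr1:55087933-55088182 on the minus strand, 2 overlapping matches to the heat shock element of 3 units form 1 run of capitals. The BiP gene Hspa5 at chr2:34771840-34772089 on the plus strand and the calnexin gene Canx at chr11:50325674-50325923 on the minus strand each held 1 ER stress element. The Grp94 gene Hsp90b1 at chr10:86705445-86705694 on the minus strand held 2, in opposite orientations.
Hspd1: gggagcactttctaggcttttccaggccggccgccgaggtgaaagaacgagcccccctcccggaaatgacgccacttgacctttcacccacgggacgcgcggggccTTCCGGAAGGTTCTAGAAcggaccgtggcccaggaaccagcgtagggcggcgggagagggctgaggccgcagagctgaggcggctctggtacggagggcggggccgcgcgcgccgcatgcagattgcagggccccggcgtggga
Hspa5: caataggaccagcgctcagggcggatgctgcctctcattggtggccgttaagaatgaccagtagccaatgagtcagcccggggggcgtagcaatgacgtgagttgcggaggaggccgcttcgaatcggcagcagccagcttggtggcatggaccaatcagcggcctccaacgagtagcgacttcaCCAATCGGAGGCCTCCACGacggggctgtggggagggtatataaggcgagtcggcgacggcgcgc
Hsp90b1: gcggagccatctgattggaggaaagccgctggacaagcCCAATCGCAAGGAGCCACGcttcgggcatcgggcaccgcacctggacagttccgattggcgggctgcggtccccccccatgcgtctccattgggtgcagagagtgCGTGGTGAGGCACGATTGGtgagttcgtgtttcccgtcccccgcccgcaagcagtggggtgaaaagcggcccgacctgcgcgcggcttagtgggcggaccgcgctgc
Canx: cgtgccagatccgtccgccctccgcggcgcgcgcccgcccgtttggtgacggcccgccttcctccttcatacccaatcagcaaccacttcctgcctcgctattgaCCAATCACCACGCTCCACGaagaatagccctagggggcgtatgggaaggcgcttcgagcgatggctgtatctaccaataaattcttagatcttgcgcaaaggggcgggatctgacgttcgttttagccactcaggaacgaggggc

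A RefSeq window from 250 bases before to 50 bases after a start was found for 33 of the 41 members, and each motif was sought on both strands. The heat shock element of 3 units (GAANNTTCNNGAA) occurred in 0.603% of all 32851 windows and in 3 members, Hspd1, Hspe1 and Hsph1. The Hsph1 match lay after the start site. The shorter form of 2 units (GAANNTTC or TTCNNGAA), which every 3-unit match contains, occurred in 15.1% of windows and in 9 members. The ER stress element (CCAAT, then 9 of any base, then CCACG) occurred in 0.119% of windows and in 5 members, Hspa5, Hsp90b1, Canx, Calr and Pdia6, all of them ER proteins. The CCAAT box alone, which the ER stress element includes, was in 37.4% of windows and in 23 members, and the E-box CACGTG in 7.15% of windows and in 5 members, Calr, Dnajb9, Fkbp5, Hspd1 and Hsph1. Members are counted by gene, and a gene can have several windows. Counted by gene over 27025 genes, the shares were 0.662%, 17.0%, 0.137%, 41.1% and 8.09%, in the order given. A match describes letters in the window and not a bound factor.

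The B cell identity of the samples was checked first. All 9 B cell markers on the arrays were above the filter, with a summed level of 16.52 to 16.60 (log2) on the arrays without IgM and 15.50 to 15.82 with IgM. Markers of other cells were detected too. The summed level of 6 neutrophil markers, all above the filter on at least 1 array, lay at 8.11 to 11.15 in control and 11.35 to 14.12 in deleted cells without IgM, and at 7.61 to 10.30 and 10.72 to 13.34 with IgM. In the fit to the 4 group means 0 of the 6 passed the genotype test, and in the block fit without deleted IgM replicate 3, both introduced below, 3 were higher in deleted cells without IgM (S100a9, Elane and Mpo) and 2 with it (Elane and Mpo). The 8 macrophage markers, 3 of them below the filter throughout, summed to 7.81 to 9.14 and 9.57 to 11.59 without IgM and to 7.54 to 8.86 and 8.90 to 11.25 with it. Of the 5 above the filter, Csf1r was higher in deleted cells without and with IgM, by 3.69 and 3.99 (limma adjusted p = 0.0199 and 0.0198), and Adgre1 lower without IgM, by 1.45 (adjusted p = 0.0334), while the block fit without that array called 4 higher and 1 lower, and 3 higher with IgM. The NK cell marker Klrk1 was higher without IgM by 1.56 (limma adjusted p = 0.0141). Of 6 measured plasma cell genes, the fit to the 4 group means called Irf4 lower in deleted cells without IgM and Prdm1 higher with it. The block fit without that array also called Sdc1 higher with IgM. Without IgM it called Cd3d, Cd3g and Cd28 of T cells, Klrd1 of NK cells, Alas2 of erythroid cells and Siglech of dendritic cells higher. It called Zbtb46 of dendritic cells lower. In such bulk RNA, fewer cells of a type and less RNA per cell cannot be told apart, and the part of these cells in the genotype values below was not tested. The 7 early response genes of B cell receptor signalling chosen as a check of stimulation rose with IgM in both genotypes. Without IgM they differed between genotypes, with a median log2 difference of -0.93 in deleted cells. The fit to the 4 group means called 2 of the 7 lower there, Nr4a1 and Nr4a3, against 0.818% of all tested genes. The block fit without deleted IgM replicate 3 called 6 lower and 1 higher, Egr3. With IgM these fits called 0 and 2 lower. The part of this difference in the values below was not tested. The arrays held 8 probe sets for Foxp1, and none differed between genotypes past the threshold. Their position relative to the deleted piece is not given in the sources used here, so this does not check the genotype labels.

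One array stood apart, replicate 3 of the deleted cells with IgM. Its lowest correlation with a group mate was 0.817, against 0.951 or more within the other 3 groups, and its bacterial poly-A control RNAs averaged 6.75 against 7.90 to 10.65 on the other 11 arrays. Relative to its group mates, its values fell with shorter genomic span of the gene, from a median of 0.81 (log2) above them among the longest genes to -1.29 among the shortest, over 5 classes of span. Of the 37 measured members, 9 lay in the class of shortest genes and 1 in that of the longest. Among members it was far below its mates for Hspe1, Grpel1 and Ahsa1 and far above them for Hspa9, Hsph1, Hspa4 and Hsp90b1. The results that rest on this array are therefore given with and without it. The same replicate numbers recur in all 4 groups and same-numbered arrays deviated together from their group means, so same-numbered arrays were treated as pairs, and a block fit, with replicate number as an added term, stands beside the fit to the 4 group means.

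Most measured chaperone genes had higher values with IgM in control cells, by at most 2.06-fold, while the ER genes were divided. In the fit to the 4 group means, 7 of 37 members rose and none fell, a share of 18.9% higher, against 8.71% of all tested genes higher and 12% lower (limma, Benjamini-Hochberg adjusted p under 0.05). The median log2 difference over the 37 members was 0.50, with 32 positive, against -0.05 over all tested genes. All 3 arrays with IgM lay above all 3 without it for 26 members and below for 1, Pdia4, against 21.0% and 24.5% of all tested genes. The block fit called 17 members higher and 1 lower, Pdia4, against 15.5% and 20.0% of all genes. When deleted IgM replicate 3 was also left out it called 29 higher and 2 lower, Pdia3 and Pdia4, against 29.5% and 33.7%. Among the 4674 tested genes with a mean level no lower than the lowest member's, that last fit called 35.2% higher and 31.7% lower.

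In deleted cells the median was close to that of control cells. In the fit to the 4 group means, 10 of 37 members rose and none fell, or 27.0% higher, against 9.78% of all tested genes higher and 9.21% lower. The median log2 difference was 0.54, with 30 of 37 positive, against -0.08 over all tested genes. The arrays with IgM lay wholly above those without for 22 members and wholly below for none, against 16.6% and 17.9% of all genes. With the block, 23 rose and none fell, against 17.3% and 19.3%. Leaving out deleted IgM replicate 3 as well gave 29 higher and 1 lower, Pdia4, against 24.3% and 29.2%. Within same-numbered pairs, 26 members were higher with IgM in 6 of 6 pairs and 1, Dnajb1, lower in 6 of 6, against 22.8% and 27.5% of all genes. Without the pair that holds deleted IgM replicate 3, 30 were higher and 2 lower in 5 of 5 pairs, against 32.0% and 38.8%.

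**Figure D1:**
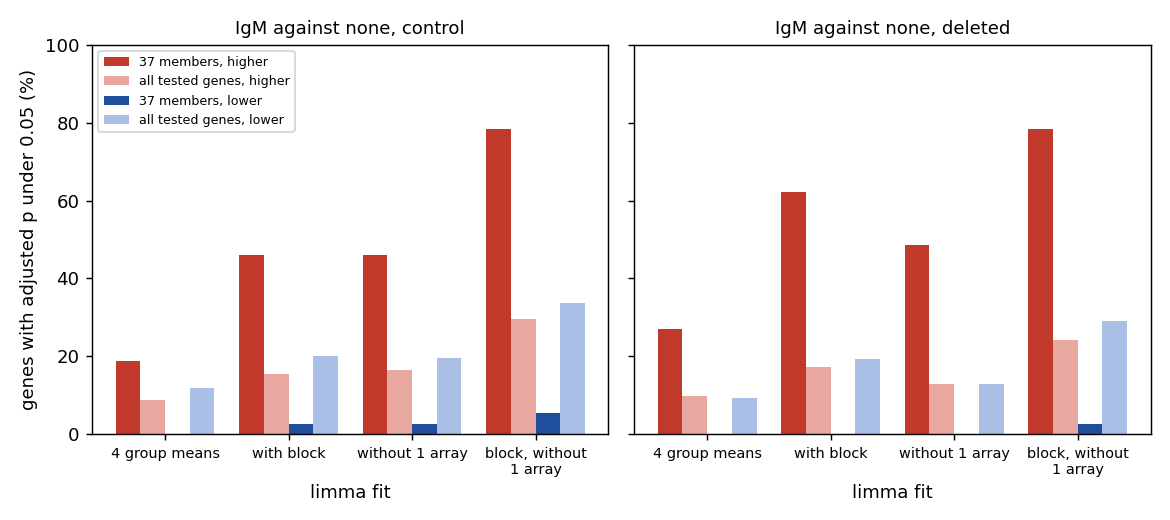
Percent of the 37 measured members (dark bars) and of all 9293 tested genes (light bars) with an adjusted p under 0.05 that were higher (red) or lower (blue) with IgM, in control and deleted cells, for 4 limma fits; the array left out is deleted IgM replicate 3. The dark red bars run from 18.9% to 78.4% in control cells and from 27.0% to 78.4% in deleted cells, above the light red bars in each fit, while the dark blue bars reach at most 5.41%.

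The counts depended on single arrays. Without deleted IgM replicate 3 and with no block, 17 members rose and 1 fell in control cells, against 16.6% and 19.5% of all genes, and 18 rose and none fell in deleted cells, against 12.9% and 12.8%. In control cells the count of 7 became 2, 4 and 2 without control unstimulated replicates 1, 2 and 3, and 3, 2 and 2 without control IgM replicates 1, 2 and 3, all of them higher, while the share of all tested genes called higher became 5.38% to 6.68%. In deleted cells the count of 10 became 5 and 6 without deleted unstimulated replicates 1 and 3, while that share became 5.99% and 6.61%. The members have 51 other probe sets above the filter, and 10 of these passed as higher with IgM in control and 16 in deleted cells, and none as lower. They belong in part to members not called with the probe set used, 6 in control and 5 in deleted cells. The poly-A controls were lower with IgM in every same-numbered pair, and the part of array quality in the members' rise was not tested.

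**Figure D2:**
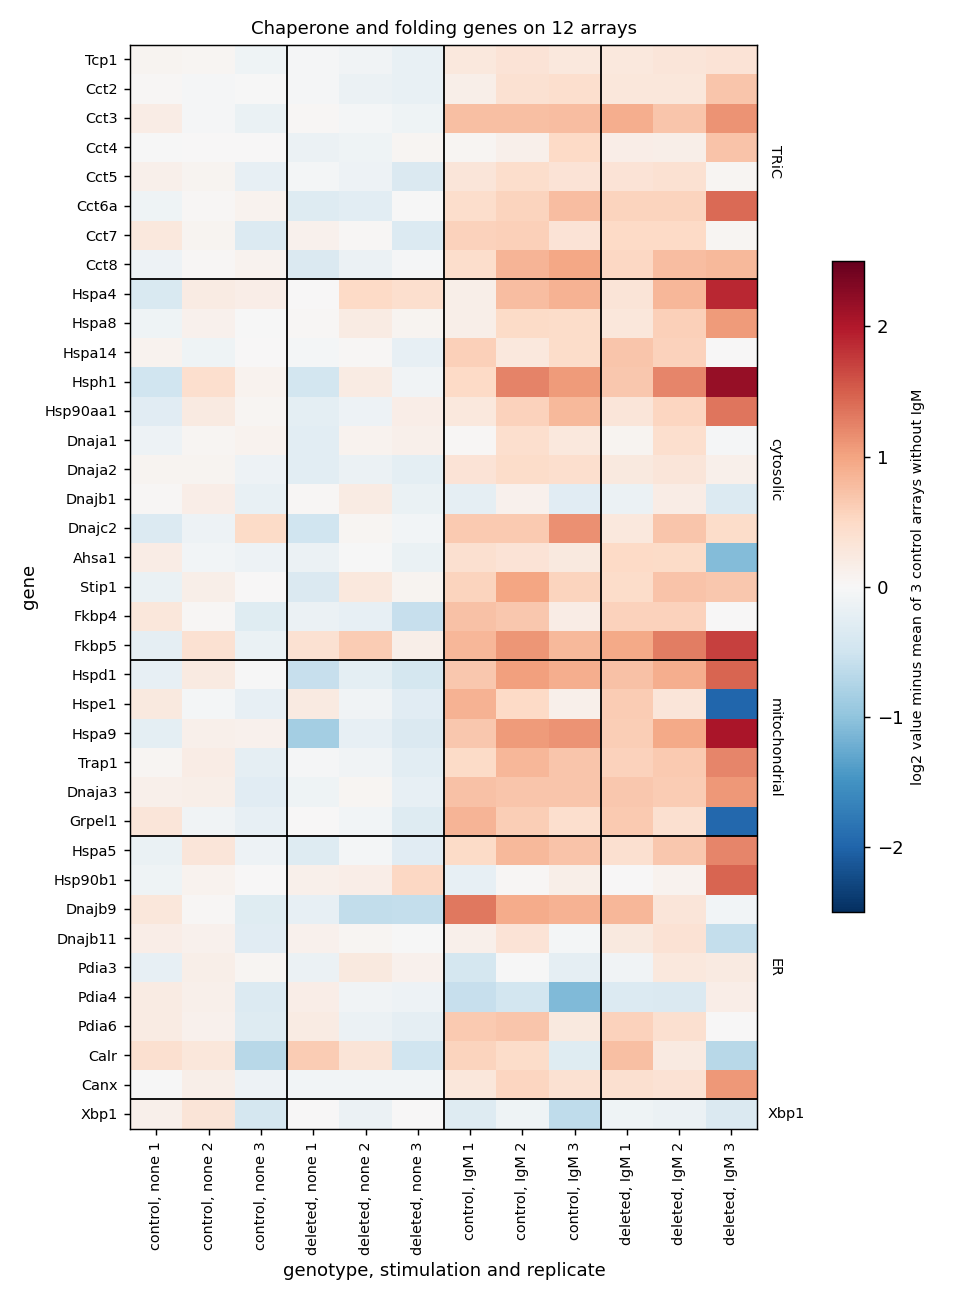
Log2 value of each of the 37 measured members on each of the 12 arrays minus that gene's mean over the 3 control arrays without IgM, in colour from blue (lower) to red (higher), with rows grouped by compartment. The 6 columns with IgM are mostly red for the TRiC, cytosolic and mitochondrial rows, the ER rows are mixed, and deleted IgM replicate 3 holds the most extreme cells of both colours.

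TRiC, or CCT, is a double ring built from 8 different subunits that folds actin, tubulin and other cytosolic proteins. All 8 subunit genes were higher with IgM in 6 of 6 same-numbered pairs. Their median log2 difference was 0.43 in control and 0.49 in deleted cells, with single genes from 0.22 to 0.76 and from 0.40 to 1.04. Cct3, the gamma subunit, read 11.89, 11.68 and 11.53 in control replicates 1 to 3 without IgM and 12.46, 12.45 and 12.47 with it, and 11.73, 11.66 and 11.59 in deleted cells without IgM and 12.60, 12.39 and 12.83 with it. The arrays with IgM thus lay above all those without, whatever the genotype. The difference was 0.76 ± 0.18 (SE) in control cells (limma adjusted p = 0.0133) and 0.95 ± 0.18 in deleted cells (adjusted p = 0.00507), or 1.69-fold and 1.93-fold.

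Cct8, the theta subunit, also rose in both genotypes. Its log2 values were 11.88, 12.04 and 12.09 in control cells without IgM and 12.44, 12.86 and 12.96 with it, and 11.64, 11.86 and 11.96 in deleted cells without IgM and 12.52, 12.77 and 12.81 with it. The groups with and without IgM did not overlap. The difference was 0.75 ± 0.20 in control (limma adjusted p = 0.0217) and 0.88 ± 0.20 in deleted cells (adjusted p = 0.0114). Cct6a, the zeta subunit, read 13.01, 13.14 and 13.20 in control cells without IgM and 13.56, 13.66 and 13.88 with it, and 12.80, 12.85 and 13.09 in deleted cells without IgM and 13.67, 13.68 and 14.52 with it. It passed in deleted cells, by 1.04 ± 0.24 (limma adjusted p = 0.0133), and by 0.83 ± 0.09 in the block fit without deleted IgM replicate 3, whose value of 14.52 was the highest. In control cells its difference was 0.58 ± 0.24 (limma adjusted p = 0.123), while its other probe set passed there with 0.64 (adjusted p = 0.0252 over all probe sets). The other 5 subunits, Tcp1, Cct2, Cct4, Cct5 and Cct7, differed by 0.22 to 0.50 in control and 0.40 to 0.54 in deleted cells without passing. In the block fit without deleted IgM replicate 3, 7 of the 8 subunits rose in each genotype, against 29.5% and 24.3% of all tested genes. Cct4 did not pass there with the probe set used (limma adjusted p = 0.0697 and 0.0512). Of its 5 other probe sets above the filter, a dim one differed by 2.09 and 1.64 in the fit over all probe sets (limma adjusted p = 0.00248 and 0.00934) and another passed in deleted cells with 1.65 (adjusted p = 0.0409).

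**Figure D3:**
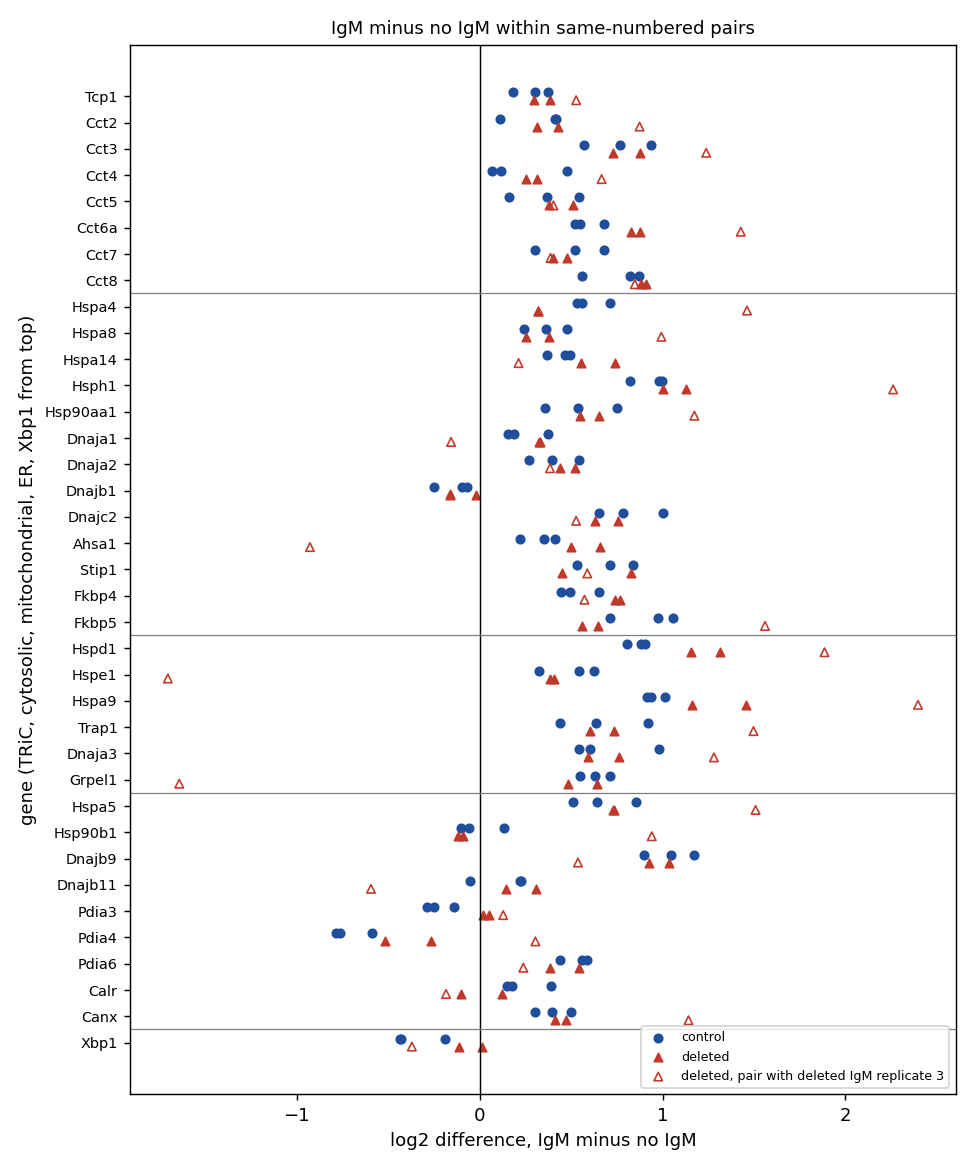
Log2 difference between same-numbered arrays with and without IgM for each of the 37 measured members, with blue circles for the 3 control pairs, red filled triangles for deleted pairs 1 and 2, and an open triangle for the deleted pair that holds IgM replicate 3; grey lines separate the compartments. All points of the 8 TRiC genes lie right of 0, Dnajb1 lies left of 0 in 6 of 6 pairs, and the open triangles of Hspe1 and Grpel1 sit at -1.70 and -1.64.

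Among the cytosolic Hsp70 and Hsp90 genes and their helpers, 13 of 16 were measured and their median log2 difference was 0.53 in control and 0.62 in deleted cells. Stip1 and Fkbp5 rose in control cells, and Hsph1 and Fkbp5 in deleted cells. Stip1 encodes Hop, which holds Hsp70 and Hsp90 together. It read 8.83, 9.13 and 9.01 in control cells without IgM and 9.54, 9.97 and 9.54 with it, and 8.63, 9.25 and 9.07 in deleted cells without IgM and 9.45, 9.70 and 9.65 with it. The groups did not overlap in either genotype. The difference was 0.70 ± 0.22 in control (limma adjusted p = 0.0456) and 0.62 ± 0.22 in deleted cells (adjusted p = 0.0726).

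Fkbp5 encodes FKBP51, an Hsp90 co-chaperone best known from steroid receptor complexes, and rose in both genotypes. Its values were 7.64, 8.23 and 7.69 in control cells without IgM and 8.69, 8.95 and 8.66 with it, and 8.23, 8.49 and 8.0 in deleted cells without IgM and 8.79, 9.13 and 9.56 with it. Every array with IgM exceeded every array without it. The differences were 0.91 ± 0.25 (limma adjusted p = 0.0264) and 0.92 ± 0.25 (adjusted p = 0.028), and the second was 0.64 ± 0.11 in the block fit without deleted IgM replicate 3. Its relative Fkbp4, or FKBP52, differed by 0.53 ± 0.25 and 0.69 ± 0.25 without passing, and rose by 0.53 ± 0.08 and 0.73 ± 0.09 in the block fit without that array (limma adjusted p = 0.000656 and 0.000356).

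Hsph1, or Hsp105, is a nucleotide exchange factor for Hsp70. It read 9.49, 10.40 and 10.07 in control cells without IgM and 10.48, 11.23 and 11.06 with it, and 9.52, 10.20 and 9.90 in deleted cells without IgM and 10.65, 11.20 and 12.16 with it. The arrays numbered 1 were the lowest of each group, and the groups did not overlap. The difference was 1.46 ± 0.39 in deleted cells (limma adjusted p = 0.0247), and 1.09 ± 0.11 in the block fit without deleted IgM replicate 3. In control cells it was 0.93 ± 0.39 (limma adjusted p = 0.125), with 1.0, 0.82 and 0.98 in the 3 pairs, and the block fit without that array called it (adjusted p = 5.35e-05).

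Hspa8, the constitutive Hsc70, read 13.36, 13.57 and 13.44 in control cells without IgM and 13.60, 13.94 and 13.92 with it, and 13.49, 13.67 and 13.53 in deleted cells without IgM and 13.74, 14.05 and 14.52 with it. The groups did not overlap, but the differences of 0.36 ± 0.22 and 0.54 ± 0.22 did not pass. They were 0.36 ± 0.08 (limma adjusted p = 0.00472) and 0.34 ± 0.09 (adjusted p = 0.0156) in the block fit without deleted IgM replicate 3. Hsp90aa1, the inducible cytosolic Hsp90, read 12.80, 13.31 and 13.13 in control cells without IgM and 13.33, 13.66 and 13.88 with it, and 12.83, 12.96 and 13.24 in deleted cells without IgM and 13.37, 13.61 and 14.42 with it. Its differences were 0.55 ± 0.29 and 0.79 ± 0.29, neither past the threshold, and 0.55 ± 0.10 and 0.57 ± 0.12 in the block fit without that array, both past it (limma adjusted p = 0.00203 and 0.00436). A second Hsp90aa1 probe set passed in deleted cells with 0.98 (limma adjusted p = 0.00799 over all probe sets).

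The remaining cytosolic members did not pass with the probe sets used. Dnajc2, a J protein of the ribosome, differed by 0.81 ± 0.27 in control (limma adjusted p = 0.0526) and 0.64 ± 0.27 in deleted cells, Dnaja2, a J protein, by 0.41 ± 0.16 and 0.45 ± 0.16, Hspa14, a ribosome-associated Hsp70, by 0.44 ± 0.21 and 0.50 ± 0.21, and Hspa4, an exchange factor of the Hsp110 type, by 0.60 ± 0.38 and 0.70 ± 0.38. Of 2 other Dnaja2 probe sets that passed in the fit over all probe sets, 1 differed by 0.72 and 0.84 (limma adjusted p = 0.0256 and 0.0129) and the other by 0.86 and 1.23 (adjusted p = 0.0372 and 0.00767). Dnaja1, another J protein, had differences of 0.24 and 0.17, and a second probe set passed in deleted cells with 0.60 (limma adjusted p = 0.047). Ahsa1, which activates the Hsp90 ATPase, differed by 0.33 ± 0.36 in control cells. In deleted cells its value on IgM replicate 3 was 9.90 against 11.49 and 11.48 on its mates, and its difference was 0.08 with that array and 0.56 ± 0.10 in the block fit without it. Dnajb1, an Hsp40 induced by heat, was the only one of the 13 with negative differences, -0.14 ± 0.21 and -0.11 ± 0.21, neither past the threshold in any of the 4 fits shown. In the block fit without deleted IgM replicate 3, 12 of the 13 rose in each genotype, all but Dnajb1, against 29.5% and 24.3% of all tested genes.

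With all 12 arrays, the mitochondrial chaperones had the highest median of the compartments, with log2 differences of 0.69 in control and 0.91 in deleted cells. The deleted median includes deleted IgM replicate 3. Among the deleted pairs, the one with that array gave the largest differences of Hspd1, Hspa9, Trap1 and Dnaja3. It gave negative ones for Hspe1 and Grpel1. Hspd1 is Hsp60, which forms the folding chamber of the mitochondrial matrix with its lid Hspe1, or Hsp10. Hspd1 read 12.57, 13.00 and 12.78 in control cells without IgM and 13.46, 13.81 and 13.69 with it, and 12.21, 12.54 and 12.35 in deleted cells without IgM and 13.53, 13.69 and 14.24 with it. Each array with IgM was above each without. It rose by 0.87 ± 0.23 in control (limma adjusted p = 0.0214) and 1.45 ± 0.23 in deleted cells (adjusted p = 0.00173), or 1.82-fold and 2.74-fold, and the second was 1.25 ± 0.09 in the block fit without deleted IgM replicate 3.

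Hspe1 starts beside Hspd1, and its window holds the heat shock elements of the Hspd1 window shown. It read 12.65, 12.37 and 12.20 in control cells without IgM and 13.27, 12.91 and 12.53 with it. In deleted cells it read 12.64, 12.32 and 12.13 without IgM and 13.04, 12.71 and 10.43 with it. The value of 10.43 was the lowest of the 12 by far, and in the other 5 pairs the array with IgM was the higher one. The difference was 0.50 ± 0.55 in control cells and -0.30 ± 0.55 in deleted cells, neither past the threshold. In the block fit without deleted IgM replicate 3 the differences were 0.50 ± 0.08 (limma adjusted p = 0.000969) and 0.38 ± 0.10 (adjusted p = 0.0107), so the sign in deleted cells turned with that array. Grpel1, the exchange factor of mitochondrial Hsp70, did the same: it read 11.17, 10.92 and 8.56 in deleted cells with IgM, and its difference there was -0.17 ± 0.54 with that array and 0.56 ± 0.09 in the block fit without it. In control cells Grpel1 differed by 0.63 ± 0.54.

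Hspa9 is mortalin, the mitochondrial Hsp70. It read 12.42, 12.79 and 12.77 in control cells without IgM and 13.33, 13.72 and 13.78 with it, and 11.81, 12.45 and 12.29 in deleted cells without IgM and 13.27, 13.61 and 14.69 with it. The groups did not overlap, and deleted IgM replicate 3 was again the highest. The difference in deleted cells was 1.67 ± 0.34 (limma adjusted p = 0.00694), the largest among the 37 members, and 1.32 ± 0.10 in the block fit without that array. In control cells it was 0.95 ± 0.34 (limma adjusted p = 0.0742) with the probe set used, while of 3 other probe sets above the filter 1 passed with 1.06 (adjusted p = 0.0279 over all probe sets).

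Dnaja3, the J protein that works with mortalin, rose in both genotypes. It read 9.34, 9.36 and 8.92 in control cells without IgM and 9.94, 9.90 and 9.90 with it, and 9.11, 9.25 and 9.01 in deleted cells without IgM and 9.87, 9.85 and 10.29 with it. The groups did not overlap, and the differences were 0.71 ± 0.20 (limma adjusted p = 0.028) and 0.88 ± 0.20 (adjusted p = 0.0114). Trap1, the mitochondrial Hsp90, read 8.95, 9.10 and 8.68 in control cells without IgM and 9.39, 9.73 and 9.60 with it, and 8.88, 8.82 and 8.64 in deleted cells without IgM and 9.48, 9.56 and 10.14 with it. It passed in deleted cells, by 0.95 ± 0.22 (limma adjusted p = 0.0136), and not in control cells, by 0.67 ± 0.22 (adjusted p = 0.0575). The values of 10.29 for Dnaja3 and 10.14 for Trap1 were those of deleted IgM replicate 3. Deleted pairs 1 and 2 differed by 0.76 and 0.59 for Dnaja3, against 0.60, 0.54 and 0.98 in the control pairs. For Trap1 they differed by 0.60 and 0.74, against 0.44, 0.64 and 0.92. The interaction test did not pass for Trap1 (limma adjusted p = 0.951). In the block fit without deleted IgM replicate 3 all 6 mitochondrial members rose in both genotypes, against 29.5% and 24.3% of all tested genes.

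**Figure D4:**
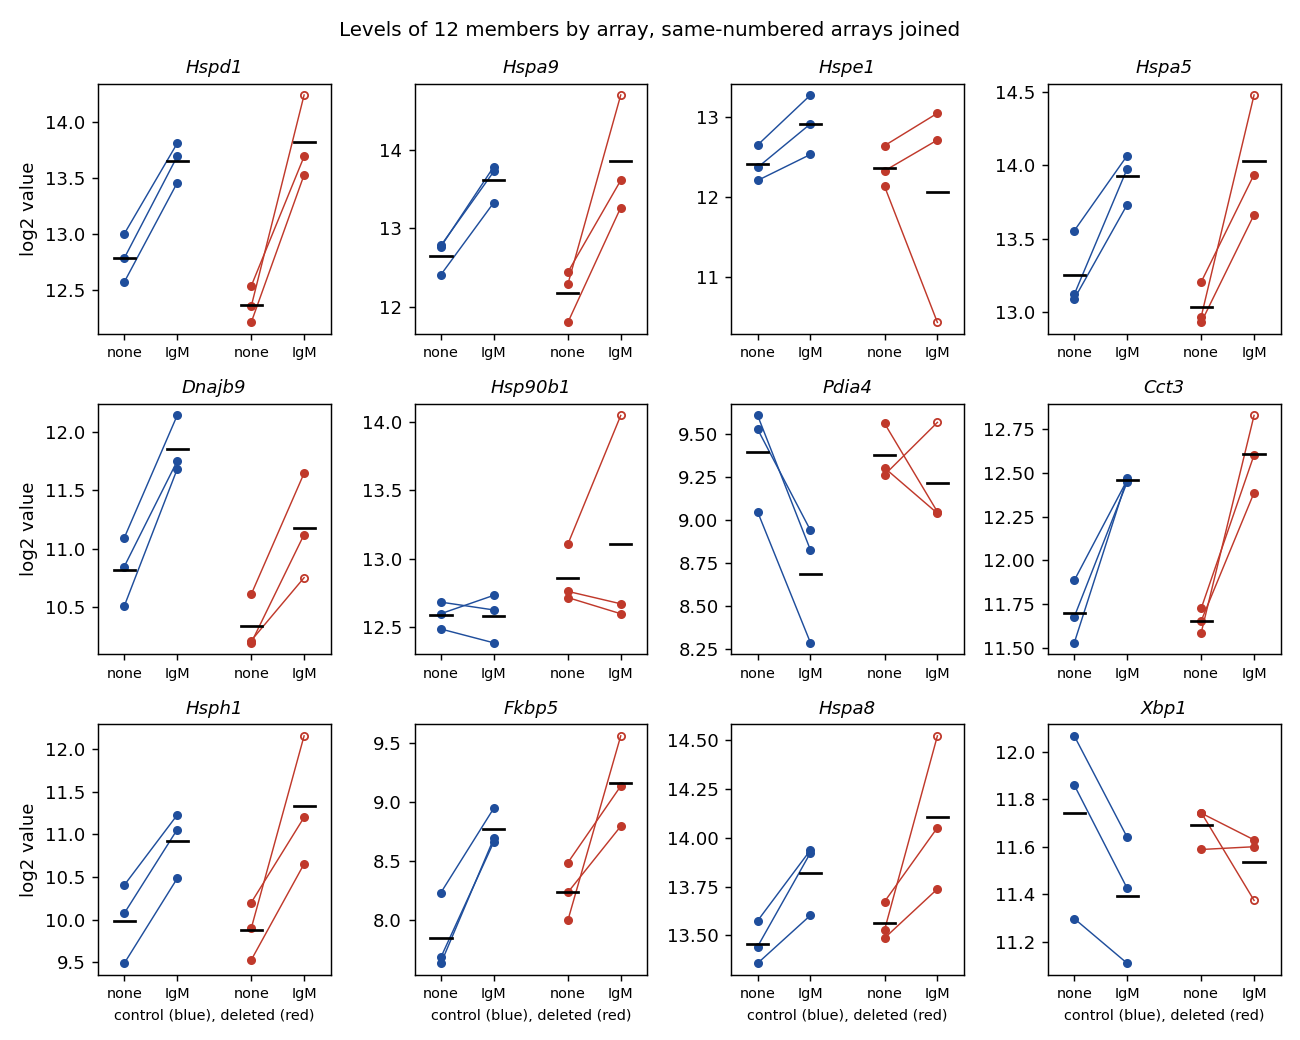
Log2 values of 12 members on each array, with control arrays in blue and deleted arrays in red, without (none) and with IgM; thin lines join same-numbered arrays, thick black bars are means of 3 arrays, and the open circle is deleted IgM replicate 3. Hspd1, Hspa9, Hspa5, Dnajb9, Cct3, Hsph1, Fkbp5 and Hspa8 are higher with IgM in 6 of 6 pairs, and the open circle is the lowest point of Hspe1, at 10.43, and the highest of Hsp90b1, at 14.05.

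The ER members were divided. Their median log2 difference was 0.24 in control and 0.24 in deleted cells, and 4 of the 9 were higher with IgM in 6 of 6 pairs. Dnajb9 is ERdj4, a BiP partner and a known target of Xbp1. It read 11.09, 10.85 and 10.51 in control cells without IgM and 12.14, 11.75 and 11.68 with it, and 10.61, 10.20 and 10.22 in deleted cells without IgM and 11.65, 11.12 and 10.75 with it. The arrays with IgM lay above those without in each genotype. The difference was 1.04 ± 0.27 in control cells (limma adjusted p = 0.0192), or 2.06-fold, and 0.83 ± 0.27 in deleted cells (adjusted p = 0.053), where the block fit without deleted IgM replicate 3 gave 0.94 ± 0.11 (adjusted p = 0.000185).

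Hspa5 encodes BiP, the ER Hsp70 and a main sensor of folding load. It read 13.09, 13.55 and 13.12 in control cells without IgM and 13.73, 14.06 and 13.97 with it, and 12.93, 13.20 and 12.97 in deleted cells without IgM and 13.66, 13.94 and 14.48 with it. The groups did not overlap. BiP rose in deleted cells by 0.99 ± 0.24 (limma adjusted p = 0.0161), or 1.99-fold. In control cells the difference was 0.67 ± 0.24 (limma adjusted p = 0.0767) with the probe set used, and a second probe set passed with 0.86 (adjusted p = 0.0364 over all probe sets). The dimmest one gave 0.43 in control and 0.06 in deleted cells and did not pass (limma adjusted p = 0.465 and 0.932). Both genotypes passed in the block fit without deleted IgM replicate 3, by 0.67 ± 0.09 and 0.74 ± 0.10.

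Hsp90b1, or Grp94, is usually regulated together with BiP and carries ER stress elements too, but its values did not separate. It read 12.49, 12.68 and 12.60 in control cells without IgM and 12.38, 12.62 and 12.73 with it, and 12.72, 12.76 and 13.11 in deleted cells without IgM and 12.60, 12.67 and 14.05 with it. The groups overlapped, and the value of 14.05 was that of deleted IgM replicate 3. The differences were -0.01 ± 0.34 (limma adjusted p = 0.994) and 0.24 ± 0.34 (adjusted p = 0.652), and in the block fit without that array -0.01 ± 0.10 and -0.16 ± 0.11, neither past the threshold. The difference between the changes of Hsp90b1 and Hspa5 was not tested.

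Pdia4, the disulfide isomerase ERp72, went the other way. It read 9.61, 9.53 and 9.05 in control cells without IgM and 8.82, 8.94 and 8.28 with it, and 9.56, 9.30 and 9.26 in deleted cells without IgM and 9.05, 9.04 and 9.57 with it. In control cells the groups did not overlap, and in deleted cells replicate 3 ran against the other pairs. The difference of -0.71 ± 0.25 in control cells (limma adjusted p = 0.0708) did not pass in the fit to the 4 group means and passed in the block fit (adjusted p = 0.000864 without deleted IgM replicate 3). In deleted cells it was -0.16 ± 0.25, and -0.48 ± 0.13 in the block fit without that array (limma adjusted p = 0.017). Pdia3, the isomerase ERp57, differed by -0.23 ± 0.21 and 0.07 ± 0.21, while Pdia6, the isomerase P5, differed by 0.53 ± 0.24 and 0.39 ± 0.24, none past the threshold.

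Of the lectin chaperones, Canx, or calnexin, differed by 0.40 ± 0.22 in control and 0.68 ± 0.22 in deleted cells (limma adjusted p = 0.241 and 0.0526). A dimmer probe set of Canx passed in both genotypes, with 1.14 (adjusted p = 0.0224 over all probe sets) and 1.38 (adjusted p = 0.00969), and a brighter one in deleted cells, with 1.19 (adjusted p = 0.0406). Calr, or calreticulin, differed by 0.24 ± 0.45 and -0.05 ± 0.45, and Dnajb11, the BiP partner ERdj3, by 0.13 ± 0.26 and -0.05 ± 0.26. Of the 5 members with an ER stress element in the window, Hspa5, Canx and Pdia6 rose in both genotypes in the block fit without deleted IgM replicate 3. Hsp90b1 and Calr did not pass. That fit called 29 of the 37 measured members higher in each genotype, against 29.5% of all tested genes in control and 24.3% in deleted cells. Dnajb9, which rose more than any other ER member in control cells, had no match to that element in its window.

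Xbp1 read 11.86, 12.07 and 11.30 in control cells without IgM and 11.43, 11.64 and 11.11 with it, and 11.74, 11.59 and 11.74 in deleted cells without IgM and 11.63, 11.60 and 11.37 with it. It was lower with IgM in 5 of 6 pairs and the groups overlapped. The differences of -0.35 ± 0.23 and -0.16 ± 0.23 did not pass (limma adjusted p = 0.355 and 0.674). An array probe set reads total Xbp1 RNA and does not separate its spliced form.

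Between genotypes, no measured member passed in the fit to the 4 group means. Without IgM, 0 of 37 members passed in either direction, against 2.03% of all tested genes higher and 0.818% lower in deleted cells, and 0 had an unadjusted limma p under 0.05, against 10.6% of all tested genes. The smallest adjusted p was 0.678, of Hspd1, and the median log2 difference was -0.07, with 29 of 37 negative. With IgM, 0 of 37 passed, against 1.59% higher and 0.129% lower, and 1 had an unadjusted limma p under 0.05, Dnajb9, against 13.7%. For the interaction, the change in the genotype difference on adding IgM, 0 of 37 passed, against 0% higher and 0.108% lower, and 0 had an unadjusted limma p under 0.05, against 3.82%. A p that misses the threshold does not show that the genotypes are alike.

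The paired fits called a few members between genotypes. In the block fit without deleted IgM replicate 3, deleted cells without IgM had 2 members higher, Hspa4 and Fkbp5, and 4 lower, Dnajb9, Hspa9, Hspd1 and Fkbp4. These are 5.41% and 10.8% of the 37, against 11.6% and 10% of all tested genes. With IgM the block fit called Dnajb9 lower and none higher, against 1.10% and 5.66%, and without deleted IgM replicate 3 it called Pdia3 higher and Dnajb9 lower, against 9.73% and 3.43%. For the interaction that fit called 0 of 37, against 1.15% higher and 0.861% lower, with a smallest limma adjusted p of 0.19 for Hspd1.

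**Figure D5:**
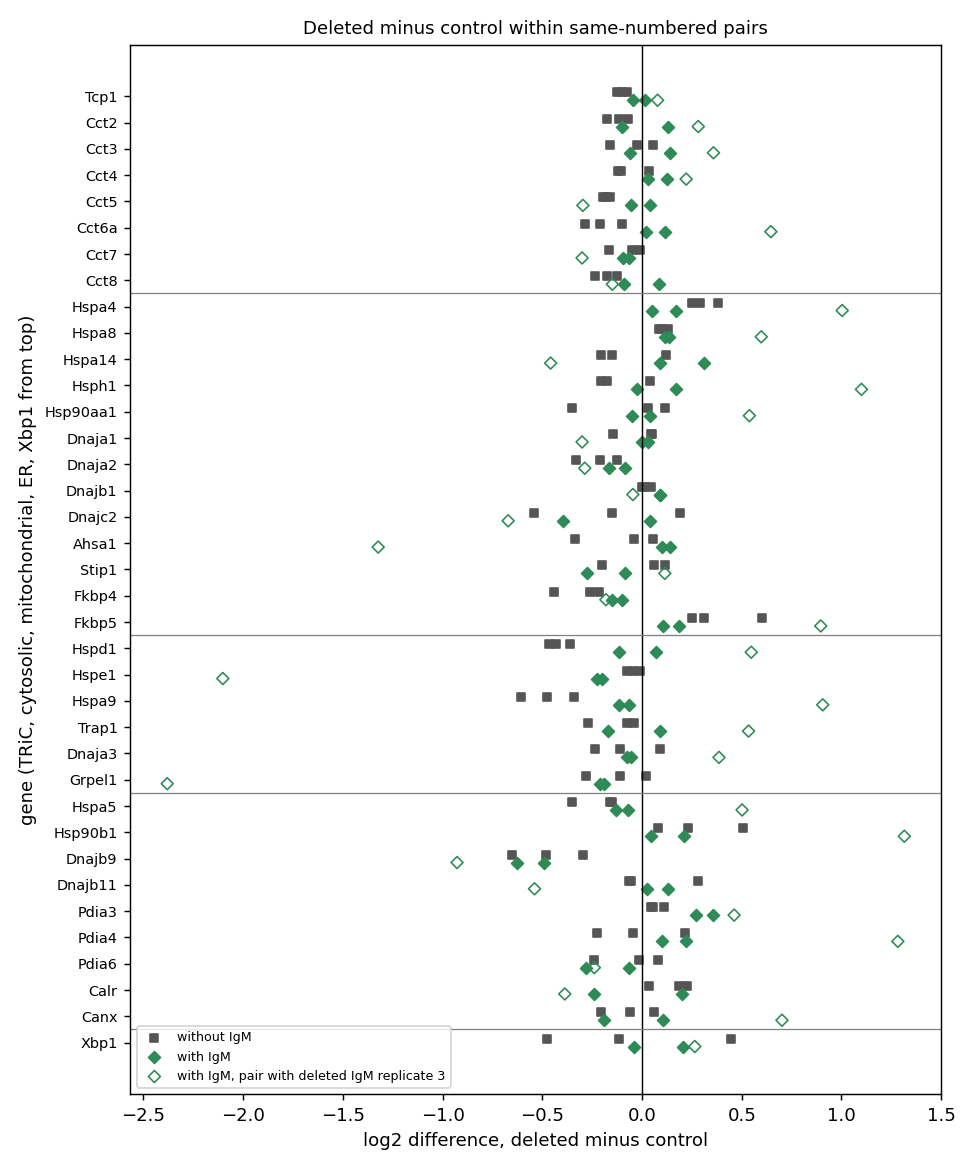
Log2 difference between deleted and control arrays of the same number for each of the 37 measured members, with grey squares without IgM, filled green diamonds for pairs 1 and 2 with IgM, and an open diamond for the pair that holds deleted IgM replicate 3. Most points lie near 0. Dnajb9, Cct7, Dnaja2, Fkbp4 and Hspe1 lie left of 0 in 6 of 6 pairs, and Hspa4, Hspa8, Fkbp5, Hsp90b1 and Pdia3 right of it. The open diamonds of Hspe1 and Grpel1 sit at -2.10 and -2.38.

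Dnajb9 was lower in deleted cells in each same-numbered pair, by 0.48, 0.65 and 0.30 without IgM and by 0.49, 0.63 and 0.93 with IgM for replicates 1 to 3. Cct7, Dnaja2, Fkbp4 and Hspe1 were also lower in every pair without and with IgM, and Hspa4, Hspa8, Fkbp5, Hsp90b1 and Pdia3 were higher in every pair. The share of all tested genes with such a run of pairs was not computed. With IgM the 3 deleted arrays lay below the 3 control arrays for 2 of the 37 members, Dnajb9 and Dnaja2, against 5.55% of all tested genes. They lay above for 1, Pdia4, against 12.3%. The difference of Dnajb9 with IgM was -0.68 ± 0.27 (limma adjusted p = 0.292), and -0.57 ± 0.11 in the block fit without deleted IgM replicate 3 (adjusted p = 0.0117). Without IgM it was -0.48 ± 0.27 (limma adjusted p = 0.707), and -0.48 ± 0.09 in that block fit (adjusted p = 0.00843).

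The matrix chaperones Hspd1 and Hspa9 were lower in deleted cells in each pair without IgM, and in 1 and 2 of the 3 pairs with it. Being lower in each pair without IgM was shared by Tcp1, Cct2, Cct5, Cct6a, Cct7, Cct8, Dnaja2, Fkbp4, Hspe1, Trap1, Hspa5 and Dnajb9. Hspa4, Hspa8, Fkbp5, Dnajb1, Hsp90b1, Pdia3 and Calr were higher in each of those pairs. The share of all tested genes was not computed for this either. Hspd1 was lower in deleted cells by 0.36, 0.47 and 0.43 without IgM, and the 3 deleted arrays lay below the 3 control arrays, while with IgM the pairs gave 0.07, -0.12 and 0.55. Without IgM the deleted arrays lay wholly below for 3 of the 37 members, Hspd1, Cct2 and Dnaja2, against 8.55% of all tested genes. They lay wholly above for 1, Hsp90b1, against 10.3%. Hspa9 was lower by 0.61, 0.34 and 0.48 without IgM, and with IgM the pairs gave -0.06, -0.11 and 0.91, the last from deleted IgM replicate 3. In the block fit without that array the differences without IgM were -0.42 ± 0.08 for Hspd1 (limma adjusted p = 0.00797) and -0.47 ± 0.08 for Hspa9 (adjusted p = 0.00601). The test of whether the genotype difference changed with IgM did not pass for either gene in that fit (limma adjusted p = 0.19 and 0.239). In the same fit Fkbp5 was higher in deleted cells without IgM by 0.39 ± 0.10 and Hspa4 by 0.31 ± 0.08, and Fkbp4 was lower by 0.31 ± 0.08. None of the members' 51 other probe sets passed between genotypes in the fit over all probe sets. Without IgM the second one of Fkbp5 differed by -0.0018 there, and that of Fkbp4 by -0.54. Those of Hspa4 differed by 0.46, 0.41 and, for the dimmest, -1.02.

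Related folding genes outside the 41 followed no single direction with IgM. Of 9 measured genes of prefoldin and other TRiC helpers, 0 passed in either genotype, with a median log2 difference of -0.21 in control cells. In deleted cells their median was -0.48, and -0.18 in the block fit without deleted IgM replicate 3. That fit called 2 higher and 4 lower in control cells and 2 higher and 3 lower in deleted cells. Of 23 other cytosolic chaperone genes, 1 rose and 2 fell in control and 2 rose and 1 fell in deleted cells, and in the block fit without that array 8 rose and 4 fell, and 8 rose and 3 fell. Bag5, an Hsp70 co-chaperone, rose by 0.87 and 0.77 and Dnajc9, a histone chaperone with a J domain, fell by 1.38 and 1.62. The inducible Hsp70 gene Hspa1a was below the filter, and Hspa1b, at means of 5.60 to 6.11, differed by 0.51 and 0.35 without passing. Of 14 other mitochondrial genes, 2 rose in each genotype, the proteases Lonp1, by 1.26 and 1.53, and Afg3l2, by 1.11 and 1.29. The block fit without that array called 7 higher and 2 lower in control cells and 6 higher and 2 lower in deleted cells. Each of these counts stands against the shares of all tested genes given above for its fit.

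Of 31 other ER folding and unfolded protein response genes, 1 rose and 3 fell in control cells and 2 rose and 3 fell in deleted cells. With the block and without deleted IgM replicate 3, 11 rose and 8 fell in control cells and 7 rose and 7 fell in deleted cells. In that fit all tested genes gave 29.5% higher and 33.7% lower in control cells and 24.3% and 29.2% in deleted cells. The paralogs of the ER oxidase moved in opposite directions: Ero1a rose by 1.16 and 1.51, and Ero1b fell by 1.40 and 0.87. Eif2ak3, which encodes the stress sensor PERK, fell by 2.07 and 1.55. Between genotypes, 1 of the 31 was higher in deleted cells without IgM and 2 with it, against 2.03% and 1.59% of all tested genes. Txndc11, a thioredoxin-domain protein of the ER, was higher in deleted cells by 1.79 ± 0.24 without IgM (limma adjusted p = 0.00182) and 1.49 ± 0.24 with it (adjusted p = 0.0116), and Edem1, which helps dispose of misfolded glycoproteins, by 1.51 ± 0.29 with IgM (adjusted p = 0.0288).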

How the data were processed

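The authors deposited 1 log2 value per probe set and array. The submitters' processing notes name GCRMA, whose version is not given in the sources used here. This method models background by probe sequence, then applies quantile normalization and a summary over probes, so differences near the floor of 2.23 are compressed. Precision is limited by the number of arrays, since arrays have no read depth. A probe set was kept at a log2 value above 4 on at least 3 arrays, and the brightest passing probe set that named 1 gene stood for the gene, which gave 9293 genes. The other probe sets of a gene enter an alternative. Symbols were updated through a GRCm38.p6 gene table.

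Differences were tested two-sided with limma 3.58.1 (lmFit, eBayes; R 4.3.3) on 4 group means, calling an adjusted p under 0.05 (Benjamini-Hochberg, all 9293 genes). Values after ± are standard errors of the fit named beside them, and of the 4 group means where none is named. No pair of arrays held identical values. Deviations of same-numbered arrays correlated at 0.174 to 0.847, each over 0.1, so the replicate numbers from the labels were taken to pair the samples. The model was tested on simulated data. The 41 members, the lists and the promoter motifs were chosen with earlier results of these data known. Every listed member is accounted for. Members that passed have their values, up to 4 per compartment have all 12 array values, and 12 members are always named. Where none of a compartment passes, up to 2 with the smallest p are named, and of each related list up to 4 that passed. Alternatives covered the filter, probe set, normalization, variance model, array weights, arrays in the fit, replicate block, threshold and leaving out arrays. Protein sequences were not used here.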

Additional observations from a re-analysis of the deposited data

Results flagged for a closer look

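Pdia3, the disulfide isomerase ERp57, was lower with IgM in 3 of 3 control pairs, by 0.25, 0.14 and 0.29, and higher in 3 of 3 deleted pairs, by 0.05, 0.02 and 0.13. The share of all tested genes with such opposite pairs was not computed. The change in the genotype difference on adding IgM was 0.29 on the log2 scale and did not pass the interaction test in the fit to the 4 group means (limma adjusted p = 0.951), nor with the replicate number as a block and without deleted IgM replicate 3 (adjusted p = 0.339).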

How the results depend on the processing

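Of the 17 calls of single members with IgM, each kept its direction under the 28 alternatives, and 108 of 476 alternative values no longer passed. Many alternatives could not turn a direction. The threshold, the variance model, the block with all arrays and the fit of only the arrays compared left each difference as it was. Leaving out an array of the other genotype did so too. The alternative with every probe set took only those of the same direction. The count of members called with IgM in control cells, 7, became 12 with every passing probe set tested, 12 with the mean of a gene's probe sets, 26 with array weights, 11 with only the arrays of the groups compared, 18 with the replicate block, 31 with the block and without deleted IgM replicate 3, and 0 at an adjusted p under 0.01. The count in deleted cells, 10, became 16 with the mean of probe sets, 26 with array weights, 1 with only the arrays compared, 23 with the block, 30 with the block and without that array, and 3 at an adjusted p under 0.01. The shares of all tested genes called higher and lower were 10.6% and 12.7% in control cells with every probe set, 10% and 12.6% in control and 11.5% and 9.79% in deleted cells with their mean, 19.2% and 22.5%, and 18.6% and 19.9%, with array weights, 13.1% and 16.3%, and 3.16% and 2.65%, with only the arrays compared, and 4.05% and 6.60%, and 4.92% and 3.97%, at an adjusted p under 0.01. Leaving out 1 array, or the 4 arrays of 1 replicate number, gave 0 to 18 in either genotype. Deleted IgM replicate 3 gave the 18, and the counts were 0 in control cells without replicate number 1 or 2, and 1 and 0 in deleted cells, where 1.61% and 0.925%, and 2.43% and 1.29%, of all tested genes were called higher. Between genotypes, the count of 0 became 6 without IgM in the block fit without that array, and with IgM 1 with the block and 2 with the block and without that array. The cause of these shifts was not tested. The filters, centring on the median with or without the members, a second quantile normalization and the trend and robust variance model kept all these counts within 1.5 times. Under the other scalings the median over all tested genes was 0.04 in control cells and 0.02 or less in deleted cells, in place of -0.05 and -0.08, and the members' median lay between 0.43 and 0.60 and between 0.54 and 0.63.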
